A study of Mus musculus with 6 samples.

Results

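The Hox genes of the 4 mouse clusters were read out of RNA-seq libraries of TKO cells, a triple knockout line of mouse embryonic stem cells, grown in 2 media. Members were the protein-coding genes of the GENCODE M21 annotation whose symbol is Hox, a cluster letter from a to d and a paralog number, and 39 of 53390 annotated genes met this rule. Hoxa held 11 of them, Hoxb 10, Hoxc 9 and Hoxd 9. The TKO line carries null alleles of the DNA methyltransferase genes Dnmt1, Dnmt3a and Dnmt3b and goes back to male J1 embryonic stem cells, and both groups were kept on gelatin without feeder cells. TKO-serum cells (3 biological replicates) grew in high-glucose DMEM with 15% FCS and 500 U/ml of LIF. TKO-2i cells (3 biological replicates) grew in N2B27 medium that held 1000 U/ml of LIF, 1 µM of PD0325901 to inhibit MEK and 3 µM of CHIR99021 to inhibit GSK3. Basal medium, serum, LIF dose and inhibitors change together between the groups, so their parts in any difference cannot be told apart. Libraries were made from 500 ng of RNA with a stranded kit after poly(A) selection. The estimated counts summed to 46228700, 44180642 and 43896549 in the TKO-2i libraries and to 38274042, 51932739 and 44827609 in the TKO-serum libraries. Here and for every set of 3 values, the order is that of the replicate number.

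Hox genes encode homeodomain transcription factors that give the cells of the embryo their position along the head-to-tail axis. Within a cluster the genes are transcribed in the same direction, and their order on the chromosome follows the order of their expression along the axis and in time, with low paralog numbers acting early and toward the head and high numbers late and toward the tail. In pluripotent cells the clusters are known to be held at low expression by Polycomb complexes, and retinoic acid, Wnt and Fgf signals and caudal-type factors start their expression at gastrulation. The comparison of TKO-2i with TKO-serum asks how RNA levels along the clusters differ between the media in cells that lack functional Dnmt1, Dnmt3a and Dnmt3b.

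The pluripotency markers were high in all 6 libraries, as the cell type label says. Pou5f1, the core pluripotency factor, stood at 1057, 982 and 1012 TPM in TKO-2i and 1249, 1249 and 1253 TPM in TKO-serum, and the summed TPM of the 6 markers Pou5f1, Sox2, Nanog, Zfp42, Esrrb and Tdgf1 was 2869, 2848 and 2680.3 TPM in TKO-2i and 3189.5, 3281 and 3204 TPM in TKO-serum. TPM is a level scaled for transcript length and for library size. That sum was lower in every TKO-2i library, while the 6 markers went both ways. In edgeR 2 were higher and 3 lower in TKO-2i, with log2 fold changes (TKO-2i over TKO-serum) from -0.41 to 0.60. Of all tested genes, 31.9% were higher and 30.6% lower. RNA of the targeted genes was still detected, with 29.1, 34.6 and 29.3 TPM in TKO-2i and 25.7, 28.6 and 27.9 TPM in TKO-serum for Dnmt1, the maintenance methyltransferase. For Dnmt3a, a de novo methyltransferase, the level was 4.30, 5.19 and 4.54 TPM in TKO-2i and 21.3, 23.0 and 22.7 TPM in TKO-serum. Dnmt3b, the other de novo enzyme, stood at 6.71, 9.53 and 8.49 TPM in TKO-2i and 18.8, 20.9 and 20.7 TPM in TKO-serum. Dnmt3a and Dnmt3b were lower in every TKO-2i library than in any TKO-serum library, with edgeR log2 fold changes (TKO-2i over TKO-serum) of -2.04 and -1.11, and that of Dnmt1 was 0.24, a call that limma on log2 TPM did not make. These values are gene totals that do not resolve whether the reads lie in the deleted parts, so they check nothing about the alleles.

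Hox RNA was low in both media and higher in TKO-2i along all 4 clusters. The summed TPM of the 39 genes was 60.1, 65.3 and 58.4 TPM in TKO-2i and 11.9, 14.5 and 12.9 TPM in TKO-serum, with means of 61.3 ± 3.57 TPM in TKO-2i and 13.1 ± 1.33 TPM in TKO-serum (SD, n = 3 per group), a ratio of 4.68. Every TKO-2i library lay above every TKO-serum library in each of the 4 cluster sums. In bulk RNA, fewer cells that express a gene and less RNA per cell cannot be told apart, and this holds for every value given here. A gene with 3 counts, taken as the limit of detection, had between 0.0564 and 0.0778 CPM (counts scaled to a common library size), and this limit and the intervals given for ratios cover counting error only.

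Of the 39 genes, 28 passed the filter on low counts and were tested. Higher in TKO-2i were 26 of these, at an adjusted p-value under 0.05 by the quasi-likelihood test of edgeR with p-values adjusted by the Benjamini-Hochberg procedure over 18177 genes. Over all tested genes 31.9% were higher in TKO-2i by that rule. No Hox gene was called lower, against 30.6% of all tested genes. At an unadjusted p-value under 0.05, 0 Hox genes were lower in edgeR, in DESeq2 and by limma on log2(TPM + 0.1), and 1 (Hoxd1) was lower by limma on log2(TPM + 1), with an unadjusted p = 0.045 and an adjusted p = 0.075. Hoxd1 was also lower by that rule in edgeR without TKO-serum replicate 1 (unadjusted p = 0.048, adjusted p = 0.079), and its adjusted p ran from 0.075 to 0.39 over all alternatives. At least 2-fold higher at that adjusted p-value were 25 Hox genes, against 7.72% of all tested genes. The TPM of every TKO-2i library was above that of every TKO-serum library in 27 of the 28 tested Hox genes, against 26.9% of all tested genes. Among all 39 members 32 were separated in this direction, 1 (Hoxd1) was separated the other way and 6 overlapped. No share over all annotated genes was computed beside these, and the untested members have few counts, where a few reads can separate the groups. A gene low in TKO-serum passed the filter only through its TKO-2i counts and had to be higher there. These counts, and medians over tested genes, are therefore a description and no support. Above 3 counts in every TKO-serum library were 21 of the 28, and 4 (Hoxc5, Hoxc6, Hoxc8 and Hoxc11) were above it in none. The bar of the filter is higher than 3 counts, so members of the 21 also passed only through TKO-2i, such as Hoxb13 with 5, 7 and 9 TKO-serum counts. With at least 10 counts required in every sample, 14 Hox genes were tested and 12 were higher, and the median difference of the 14 was 1.85 on the log2 scale. The median log2 fold change, which is the log2 of TKO-2i over TKO-serum, was 2.85 for the 28 Hox genes and 0.01 for all 18177 genes, and the Hox median was 2.75 with Hoxc8 at the lower bound of its ratio and 2.39 over all 39 members without the filter. Fitted by limma on log2(TPM + 1), which shrinks differences between levels under 1 TPM, 26 Hox genes were higher, 13 at least 2-fold, with a median of 0.92.

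**Figure D1:**
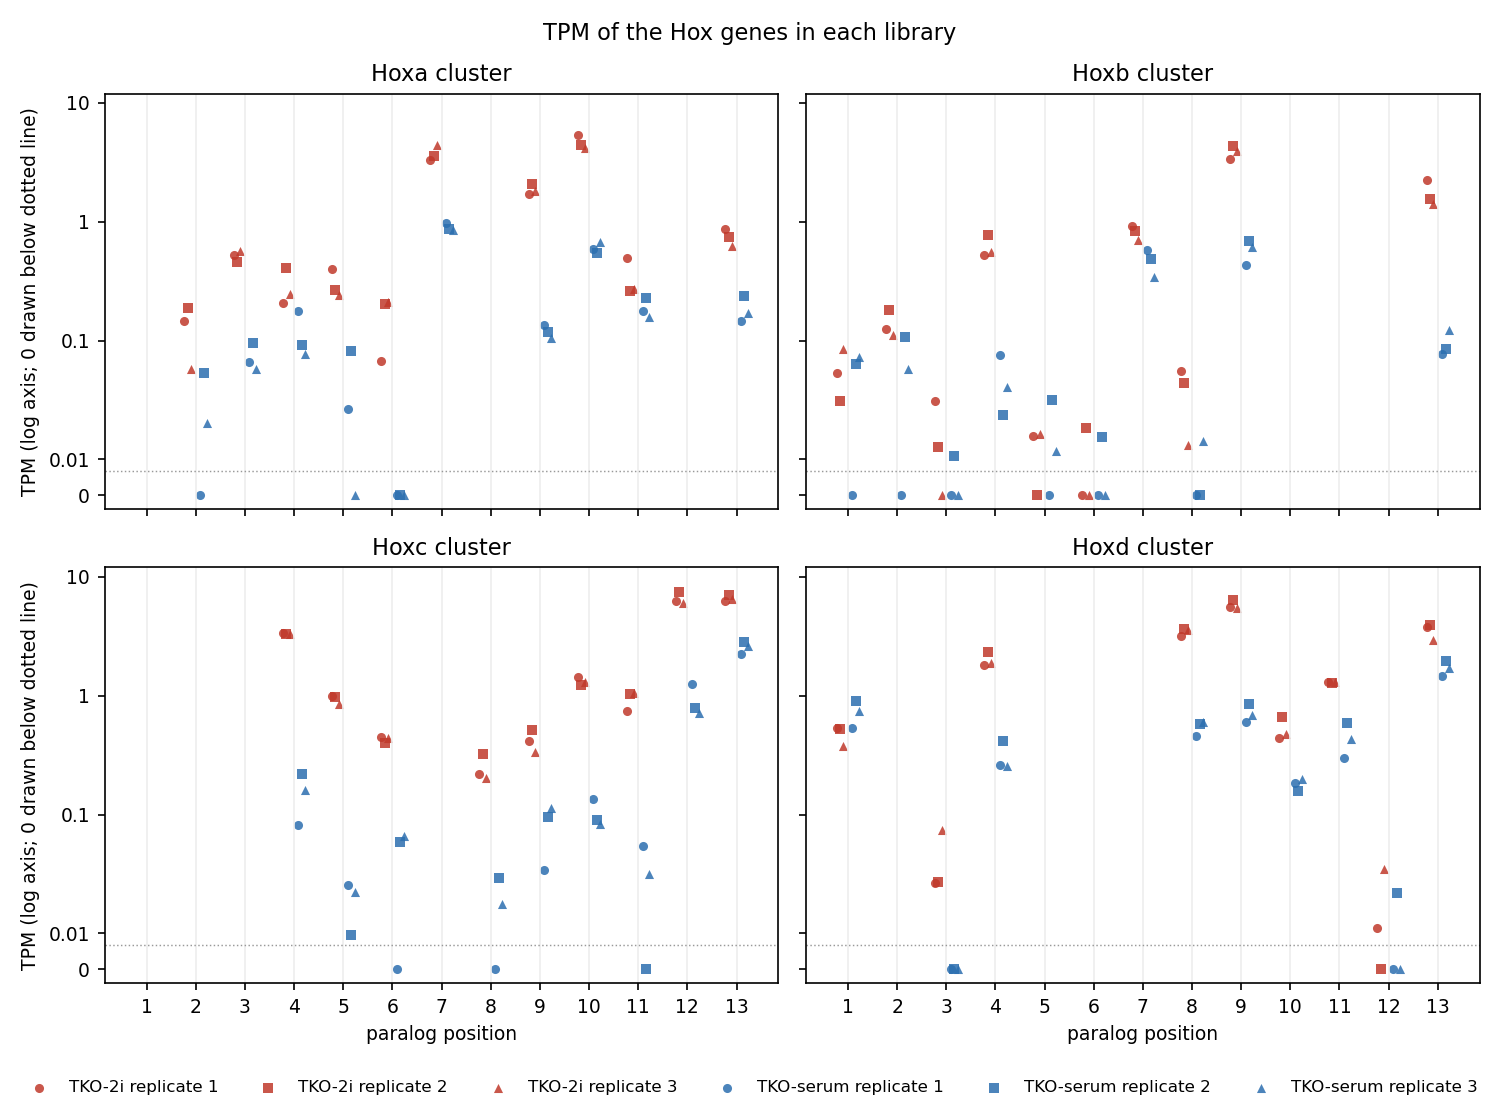
TPM (log axis, with values of 0 drawn below the dotted line) of the Hox genes described by name, by paralog position in each of the 4 clusters, with 1 symbol per library, TKO-2i in red and TKO-serum in blue. The red symbols lie above the blue ones at most genes, and the highest value is 7.45 TPM, for Hoxc12 in TKO-2i replicate 2.

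The levels were modest beside those of other genes. The highest Hox value in any library was 7.45 TPM, for Hoxc12, while the median tested gene stood at 7.08 TPM in TKO-2i and 7.53 TPM in TKO-serum, and 0 of the tested Hox genes had a TKO-2i mean above that median. Mean TPM passed 1 in 15 Hox genes in TKO-2i and in 2 (Hoxc13 and Hoxd13) in TKO-serum, while 73.1% of all tested genes passed 1 TPM in TKO-2i. Above 3 counts in all TKO-2i libraries were 30 Hox genes, above it in all TKO-serum libraries were 21, and 5 (Hoxb3, Hoxb5, Hoxb6, Hoxb8 and Hoxd12) did not pass it in any library.

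The Hoxa cluster spans 105 kb of the minus strand of chromosome 6 (positions here are in GRCm38). Of its 11 genes, 8 were tested and 7 were higher in TKO-2i. Hoxa3 (ENSMUSG00000079560, chr6:52169062-52213336), needed for the thymus and parathyroid glands, had 0.522, 0.459 and 0.567 TPM in TKO-2i and 0.0659, 0.0960 and 0.0582 TPM in TKO-serum. Its TKO-serum values were close to the detection limit and the groups did not overlap, with a log2 fold change of 2.67 (SE 0.34, edgeR adjusted p = 0.00018). Hoxa5 (ENSMUSG00000038253, chr6:52201754-52204587), which acts in the lung and the cervical skeleton, had 0.403, 0.265 and 0.242 TPM in TKO-2i and 0.0266, 0.0821 and 0 TPM in TKO-serum. It was above 3 counts in 1 TKO-serum library only, and the highest TKO-serum value stayed under the lowest TKO-2i value. Its log2 fold change of 3.01 (SE 0.64, edgeR adjusted p = 0.0033) became 4.41 without TKO-serum replicate 2. Hoxa7 (ENSMUSG00000038236, chr6:52214491-52221854), a gene of the thoracic skeleton, stood at 3.31, 3.58 and 4.44 TPM in TKO-2i and 0.986, 0.870 and 0.855 TPM in TKO-serum. Replicates lay close together in both groups and did not mix between them (log2 fold change 1.99, SE 0.15, edgeR adjusted p = 7.6e-06). Hoxa9 (ENSMUSG00000038227, chr6:52223100-52231089), which maintains blood progenitors, had 1.70, 2.07 and 1.82 TPM in TKO-2i and 0.134, 0.118 and 0.106 TPM in TKO-serum. The lowest TKO-2i library was far above the highest TKO-serum library, with a log2 fold change of 3.45 (SE 0.20, edgeR adjusted p = 1.7e-06), or 4.06 on length-scaled TPM. Hoxa10 (ENSMUSG00000000938, chr6:52231197-52240854), required in the uterus, was the most abundant Hoxa gene in TKO-2i, and its level was 5.39, 4.39 and 4.16 TPM in TKO-2i and 0.593, 0.542 and 0.676 TPM in TKO-serum. Every TKO-2i library exceeded every TKO-serum library (log2 fold change 2.93, SE 0.17, edgeR adjusted p = 1.9e-06), and with protein-coding transcripts alone the log2 fold change was 2.34. Hoxa13 (ENSMUSG00000038203, chr6:52257694-52260880), a gene of digits and hindgut, had 0.864, 0.739 and 0.624 TPM in TKO-2i and 0.145, 0.239 and 0.171 TPM in TKO-serum. The ranges of the groups were apart, with a log2 fold change of 1.92 (SE 0.26, edgeR adjusted p = 0.00023). Hoxa11 (ENSMUSG00000038210, chr6:52242106-52245810), which shapes the forearm and the uterus, was tested and not called. Its levels of 0.494, 0.262 and 0.271 TPM in TKO-2i and 0.177, 0.227 and 0.157 TPM in TKO-serum did not overlap, while the log2 fold change of 0.89 (SE 0.35) had an edgeR adjusted p = 0.051. Its adjusted p in edgeR was 0.016 without TKO-2i replicate 2 and 0.047 on length-scaled TPM, and over all alternatives it ran from 0.016 to 0.42. The median log2 fold change of the 866 tested genes of chromosome 6 was 0.41, all 8 tested Hoxa genes were above it, and the Hoxa median was 2.33.

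The Hoxb cluster on the plus strand at chr11:96194316-96368256 spans 174 kb, and 4 of its 10 genes passed the filter, all of them higher in TKO-2i. Hoxb4 (ENSMUSG00000038692, chr11:96318267-96321638), known for expanding blood stem cells, had 0.529, 0.774 and 0.560 TPM in TKO-2i and 0.0761, 0.0239 and 0.0404 TPM in TKO-serum. Only TKO-serum replicate 1 was above 3 counts in that group, and no TKO-serum library came near the TKO-2i range. The log2 fold change was 3.85 (SE 0.35, edgeR adjusted p = 2.5e-05). Hoxb9 (ENSMUSG00000020875, chr11:96271457-96276595), which patterns the ribs, was the most abundant Hoxb gene and made up 53.1% of the summed Hoxb TPM in TKO-2i. Its level was 3.35, 4.38 and 3.94 TPM in TKO-2i and 0.430, 0.689 and 0.612 TPM in TKO-serum. The groups were clearly apart, with a log2 fold change of 2.84 (SE 0.14, edgeR adjusted p = 7.2e-07). Hoxb13 (ENSMUSG00000049604, chr11:96194316-96197447), a gene of the prostate and the tail end that lies away from the rest of its cluster, had 2.26, 1.55 and 1.40 TPM in TKO-2i and 0.0774, 0.0850 and 0.122 TPM in TKO-serum. TKO-2i replicate 1 was the highest library and all TKO-serum libraries were low, with a log2 fold change of 4.30 (SE 0.33, edgeR adjusted p = 8.4e-06). Hoxb7 (ENSMUSG00000038721, chr11:96286623-96290162), a gene of the thoracic level, was the gene called with a difference under 2-fold, at 0.918, 0.830 and 0.705 TPM in TKO-2i and 0.577, 0.484 and 0.342 TPM in TKO-serum. The groups did not overlap, with a log2 fold change of 0.85 (SE 0.28, edgeR adjusted p = 0.026). That call was lost in DESeq2 (adjusted p = 0.071) and in edgeR without TKO-2i replicate 1 (0.089), TKO-serum replicate 2 (0.072) or TKO-serum replicate 3 (0.098), within a range of 0.014 to 0.098 over all alternatives. On chromosome 11 the median of 1399 tested genes was 0.26, and all 4 tested Hoxb genes were above it, with a Hoxb median of 3.34.

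The Hoxc cluster, 116 kb of the plus strand at chr15:102921103-103036852, was the only one in which all genes were tested, and all 9 were higher in TKO-2i. Hoxc4 (ENSMUSG00000075394, chr15:103018934-103036852), active in the cervical spinal cord, had 3.40, 3.31 and 3.30 TPM in TKO-2i and 0.0820, 0.218 and 0.161 TPM in TKO-serum. The TKO-2i replicates were nearly equal and far above the TKO-serum ones (log2 fold change 4.52, SE 0.22, edgeR adjusted p = 7.4e-07). Hoxc5 (ENSMUSG00000022485, chr15:102967443-103017429), expressed in the cervical region, had 0.994, 0.976 and 0.857 TPM in TKO-2i and 0.0254, 0.00978 and 0.0221 TPM in TKO-serum. No TKO-serum library passed 3 counts, so the log2 fold change of 5.60 (SE 0.32, edgeR adjusted p = 1.6e-06) rests on few TKO-serum reads, and it was 3.13 by limma on log2(TPM + 0.1). Hoxc6 (ENSMUSG00000001661, chr15:102998257-103011881), which acts in brachial motor neurons, had 0.450, 0.401 and 0.438 TPM in TKO-2i and 0, 0.0585 and 0.0666 TPM in TKO-serum. It was absent from TKO-serum replicate 1 and at 3 counts in replicates 2 and 3 of that group, with a log2 fold change of 3.14 (SE 0.53, edgeR adjusted p = 0.00089). Hoxc8 (ENSMUSG00000001657, chr15:102990607-102994111), a gene of the brachial and thoracic levels, had 0.221, 0.321 and 0.202 TPM in TKO-2i and 0, 0.0295 and 0.0178 TPM in TKO-serum. With 44 counts in TKO-2i and 3 in TKO-serum in all, the ratio of counts scaled for library size was 15.4 with a 95% interval of 4.93 to 77.4. The log2 fold change was 3.78 (SE 0.55, edgeR adjusted p = 0.00039) and 4.52 without TKO-serum replicate 2. Hoxc9 (ENSMUSG00000036139, chr15:102976439-102985099), which sets the thoracic motor neuron type, had 0.415, 0.511 and 0.336 TPM in TKO-2i and 0.0340, 0.0954 and 0.114 TPM in TKO-serum. The groups did not overlap, with a log2 fold change of 2.40 (SE 0.35, edgeR adjusted p = 0.00041). Hoxc10 (ENSMUSG00000022484, chr15:102966796-102971893), the lumbar counterpart, had 1.44, 1.22 and 1.30 TPM in TKO-2i and 0.135, 0.0893 and 0.0832 TPM in TKO-serum. All TKO-2i libraries were above 1 TPM and all TKO-serum libraries well below it (log2 fold change 3.80, SE 0.26, edgeR adjusted p = 4.7e-06). Hoxc11 (ENSMUSG00000001656, chr15:102954427-102957708), which acts in the hindlimb, had 0.742, 1.03 and 1.06 TPM in TKO-2i and 0.0544, 0 and 0.0319 TPM in TKO-serum. It was absent from TKO-serum replicate 2, and its log2 fold change of 5.15 (SE 0.48, edgeR adjusted p = 2.7e-05) was 5.93 without TKO-serum replicate 1 and 4.49 without TKO-serum replicate 2. Hoxc12 (ENSMUSG00000050328, chr15:102936757-102938609), a gene of the tail end, shared the highest mean level in TKO-2i with Hoxc13 and had 6.23, 7.45 and 6.07 TPM in TKO-2i and 1.25, 0.796 and 0.715 TPM in TKO-serum. TKO-serum replicate 1 was the highest of its group and still far under every TKO-2i library (log2 fold change 2.99, SE 0.20, edgeR adjusted p = 4.4e-06). Hoxc13 (ENSMUSG00000001655, chr15:102921103-102928814), needed for hair and nails, had 6.25, 6.98 and 6.49 TPM in TKO-2i and 2.25, 2.83 and 2.60 TPM in TKO-serum. It was the most abundant Hox gene in TKO-serum, with a log2 fold change of 1.47 (SE 0.09, edgeR adjusted p = 2e-06). The median of 708 tested genes of chromosome 15 was -0.08, all 9 Hoxc genes were above it, and the Hoxc median was 3.78, over genes of which 4 had no TKO-serum library above 3 counts.

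The Hoxd cluster, 96.8 kb of the plus strand at chr2:74668310-74765142, had 7 tested genes of 9, of which 6 were higher in TKO-2i. Hoxd4 (ENSMUSG00000101174, chr2:74711929-74729160), a gene of the posterior hindbrain and the neck vertebrae, had 1.81, 2.33 and 1.89 TPM in TKO-2i and 0.261, 0.420 and 0.257 TPM in TKO-serum. No TKO-serum library approached the TKO-2i values (log2 fold change 2.85, SE 0.18, edgeR adjusted p = 3e-06). Hoxd8 (ENSMUSG00000027102, chr2:74704615-74707933), expressed in the trunk, had 3.18, 3.68 and 3.55 TPM in TKO-2i and 0.459, 0.574 and 0.605 TPM in TKO-serum. The groups were apart by more than the range within either, with a log2 fold change of 2.66 (SE 0.16, edgeR adjusted p = 2.1e-06). Hoxd9 (ENSMUSG00000043342, chr2:74697727-74700208), which positions the forelimb together with Hoxa9, was the most abundant Hoxd gene in TKO-2i, and its level was 5.53, 6.35 and 5.49 TPM in TKO-2i and 0.597, 0.849 and 0.694 TPM in TKO-serum. All TKO-serum libraries were under 1 TPM, with a log2 fold change of 3.14 (SE 0.12, edgeR adjusted p = 2e-07). Hoxd10 (ENSMUSG00000050368, chr2:74691924-74695105), which acts in the hindlimb and the lumbar spinal cord, had 0.443, 0.661 and 0.478 TPM in TKO-2i and 0.183, 0.158 and 0.201 TPM in TKO-serum. Both groups were under 1 TPM and did not overlap (log2 fold change 1.64, SE 0.27, edgeR adjusted p = 0.00074). Hoxd11 (ENSMUSG00000042499, chr2:74679557-74687016), a forearm gene with Hoxa11, had 1.31, 1.29 and 1.30 TPM in TKO-2i and 0.302, 0.593 and 0.431 TPM in TKO-serum. The TKO-2i replicates were nearly equal and the TKO-serum replicates spread below them. Its log2 fold change of 1.16 (SE 0.31, edgeR adjusted p = 0.011) was 2.10 with protein-coding transcripts alone. Hoxd13 (ENSMUSG00000001819, chr2:74668310-74671599), the main gene of the digits, had 3.82, 3.92 and 2.95 TPM in TKO-2i and 1.48, 1.96 and 1.70 TPM in TKO-serum. It was above 1 TPM in all 6 libraries, with a log2 fold change of 1.16 (SE 0.14, edgeR adjusted p = 0.00012). Hoxd1 (ENSMUSG00000042448, chr2:74762980-74765142), known from pain-sensing neurons, was the only tested Hox gene with a negative log2 fold change, at 0.534, 0.521 and 0.381 TPM in TKO-2i and 0.536, 0.901 and 0.739 TPM in TKO-serum. The groups lay next to each other without overlap, and the log2 fold change of -0.49 (SE 0.25, edgeR adjusted p = 0.12) did not pass. The median of 1388 tested genes of chromosome 2 was 0.01, and 6 of the 7 tested Hoxd genes were above it, with a Hoxd median of 1.64.

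**Figure D2:**
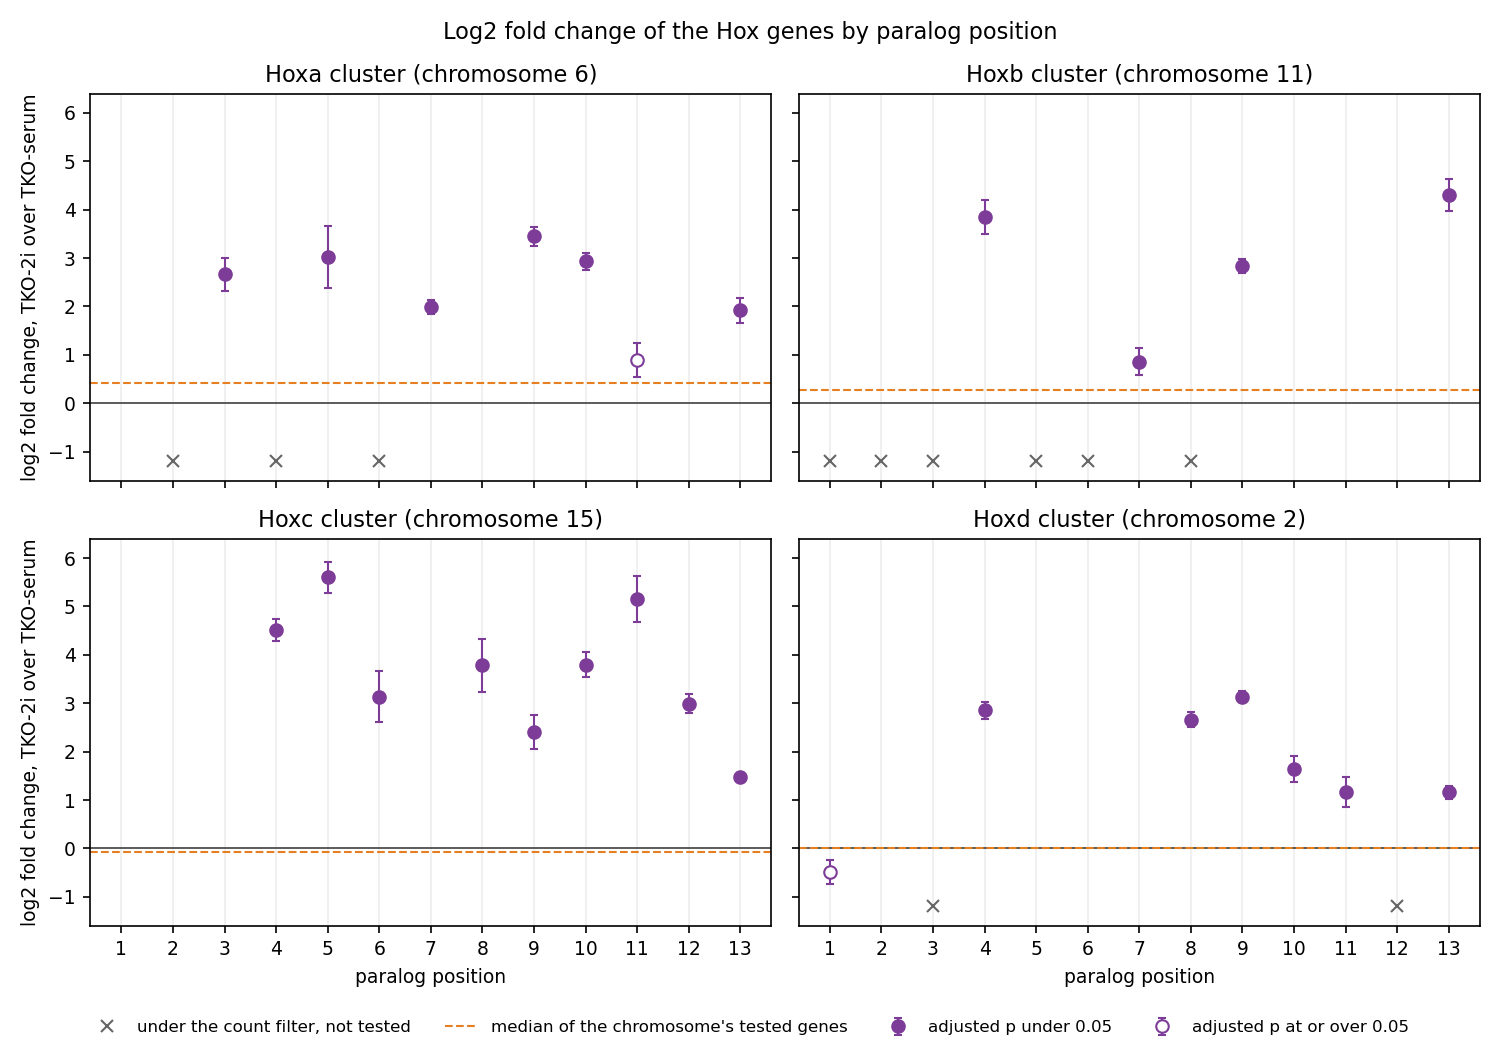
Log2 fold change of TKO-2i over TKO-serum (edgeR, bars of 1 SE) of the Hox genes described by name, by paralog position in each cluster, with filled circles for an adjusted p-value under 0.05, open circles for tested genes at or over it, crosses for genes under the count filter and a dashed line at the median of the chromosome. Filled circles run from 0.85 (Hoxb7) to 5.60 (Hoxc5), and the open circles are Hoxa11 (0.89) and Hoxd1 (-0.49).

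By cluster, the summed TPM of Hoxa was 16.0, 16.5 and 15.4 TPM in TKO-2i and 3.08, 3.40 and 3.17 TPM in TKO-serum, and the ratio of its means was 4.96. For Hoxb the sums were 7.34, 7.82 and 6.83 TPM in TKO-2i and 1.16, 1.51 and 1.27 TPM in TKO-serum, a ratio of 5.58. The Hoxc sums were 20.1, 22.2 and 20.0 TPM in TKO-2i and 3.83, 4.13 and 3.82 TPM in TKO-serum, a ratio of 5.30. For Hoxd they were 16.7, 18.8 and 16.2 TPM in TKO-2i and 3.82, 5.48 and 4.62 TPM in TKO-serum, a ratio of 3.70. The groups did not overlap in any of the 4 sums, and Hoxd had the smallest ratio. As a share of all Hox TPM, Hoxa took 26.0% in TKO-2i and 24.5% in TKO-serum, Hoxb 12.0% in TKO-2i, Hoxc 33.9% and 30.0%, and Hoxd 28.1% and 35.4% in the same order. Few genes made up each sum: in TKO-2i Hoxa10 gave 29.1% of Hoxa, Hoxb9 53.1% of Hoxb, Hoxc12 31.6% of Hoxc and Hoxd9 33.7% of Hoxd.

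By paralog position, the summed RNA of the head, middle and tail parts of the clusters was higher in TKO-2i, with the smallest ratio at the head end. Paralogs 1 to 3 (hindbrain and upper neck) had 8 genes, 3 tested and 2 higher. Of 15 genes of paralogs 4 to 8 (neck and trunk), 10 were tested and all 10 were higher, with a median log2 fold change of 3.08. Paralogs 9 to 13 (trunk, tail and limbs) had 16 genes, 15 tested and 14 higher, with a median of 2.84. Paralogs 4 to 8 summed to 15.6, 17.1 and 16.7 TPM in TKO-2i and 2.67, 2.91 and 2.47 TPM in TKO-serum, a ratio of means of 6.13. For paralogs 9 to 13 the sums were 40.2, 42.8 and 37.7 TPM in TKO-2i and 7.84, 9.30 and 8.41 TPM in TKO-serum, a ratio of 4.73. Paralogs 1 to 3 summed to 4.56 ± 0.690 TPM in TKO-2i and 1.89 ± 0.473 TPM in TKO-serum (SD, n = 3 per group), a ratio of 2.41, while in Hoxd, where these are Hoxd1 and Hoxd3, the ratio was 0.719. The groups were apart in all 3 sums, and the tail end held most of the Hox RNA in both media, with 65.7% of the summed TPM in TKO-2i and 65.1% in TKO-serum. The share of paralogs 4 to 8 was 26.9% in TKO-2i and 20.5% in TKO-serum, and that of paralogs 1 to 3 was 7.44% in TKO-2i and 14.5% in TKO-serum. Among single positions, the 3 genes of paralog 5 had the largest ratio of summed TPM at 18.0, from 1.41, 1.24 and 1.12 TPM in TKO-2i and 0.0519, 0.123 and 0.0339 TPM in TKO-serum. That ratio was 29.3 without TKO-serum replicate 2 and 14.3 without TKO-serum replicate 3, where paralog 6 had a larger one at 16.1. In TKO-serum, Hoxa5 had 1, 4 and 0 counts, Hoxc5 2, 1 and 2, and Hoxc6 of paralog 6 0, 3 and 3. The size and the rank of both ratios therefore rest on few TKO-serum reads. Within a cluster, the 4 genes of paralogs 4 to 8 of Hoxc had the largest ratio at 21.5, with sums of 4.95 ± 0.142 TPM in TKO-2i and 0.230 ± 0.109 TPM in TKO-serum (SD, n = 3 per group).

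**Figure D3:**
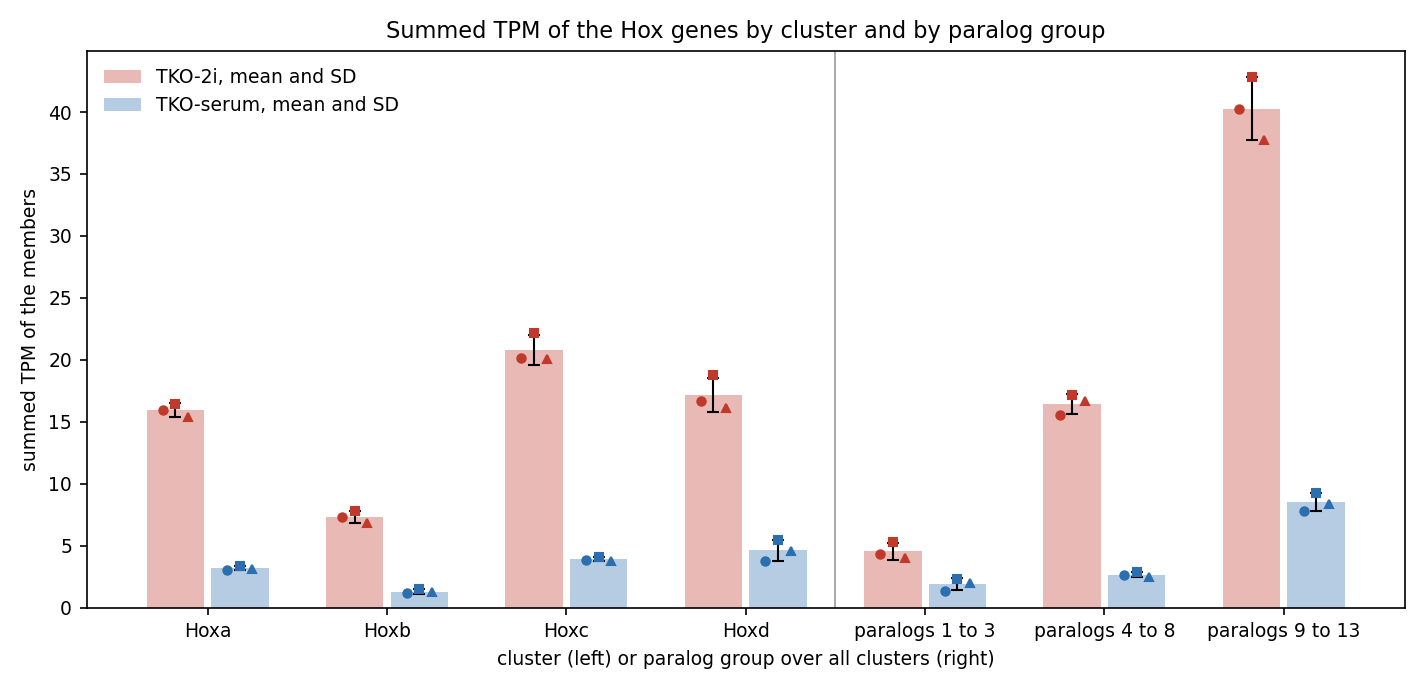
Summed TPM of the Hox genes of each cluster (left) and of paralogs 1 to 3, 4 to 8 and 9 to 13 over all clusters (right), with bars for the mean, error bars for the SD and points for the 3 replicates of TKO-2i (red) and TKO-serum (blue). Means range from 7.33 to 20.8 TPM over the clusters in TKO-2i and from 1.31 to 4.64 TPM in TKO-serum.

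The 11 genes under the filter were Hoxa2, Hoxa4 and Hoxa6, Hoxb1, Hoxb2, Hoxb3, Hoxb5, Hoxb6 and Hoxb8, and Hoxd3 and Hoxd12. None exceeded 0.410 TPM in any library or 34 counts in all over a group. Hoxa2, which patterns the second pharyngeal arch, had 8, 9 and 3 counts in TKO-2i and 0, 3 and 1 counts in TKO-serum. Hoxa4, a gene of the neck, had 9, 15 and 10 counts in TKO-2i and 6, 4 and 3 counts in TKO-serum. Hoxa6, its trunk neighbour, had 2, 5 and 6 counts in TKO-2i and 0, 0 and 0 counts in TKO-serum. Each was higher in every TKO-2i library by TPM. Hoxd3, needed for the first neck vertebrae, had 3, 2 and 7 counts in TKO-2i and 0, 0 and 0 counts in TKO-serum. It was found in no TKO-serum library. Hoxb2, a hindbrain gene, had 6, 8 and 5 counts in TKO-2i and 0, 5 and 3 counts in TKO-serum. Its TPM did not overlap between the groups, although replicate 2 had the most counts in both. Hoxb1, a hindbrain gene too, had 4, 2 and 3 counts in TKO-2i and 0, 5 and 5 counts in TKO-serum. The TPM of the groups overlapped. In edgeR without the filter, which brought in all 39 members, Hoxa2, Hoxa4, Hoxa6 and Hoxd3 had an adjusted p of 0.033, 0.038, 0.0076 and 0.011. For Hoxb3, Hoxb8 and Hoxd12 the TKO-serum total was 1, 1 and 2 counts, and the ratios of scaled counts were 4.19 (0.415 to 206), 5.24 (0.586 to 248) and 2.10 (0.300 to 23.2), intervals that all span 1. Hoxb5 and Hoxb6 had no more than 3 counts in all in either group and get no ratio, and the mean TPM of Hoxb5 was 0.0108 in TKO-2i and 0.0144 in TKO-serum.

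The Hox signal was not all on coding transcripts. The 39 genes have 86 annotated transcripts, 17 of the genes have at least 1 noncoding transcript, and in 8 (Hoxa9, Hoxa10, Hoxa11, Hoxb1, Hoxc8, Hoxd3, Hoxd4 and Hoxd11) more than 10% of the TKO-2i counts were assigned to noncoding transcripts. In Hoxa11 the noncoding transcript Hoxa11-202 took 35, 16 and 0 estimated counts in the TKO-2i libraries and 0 in every TKO-serum library, while the coding transcript Hoxa11-201 took 0, 0 and 20 in TKO-2i and 11, 18 and 11 in TKO-serum. Each library had all its Hoxa11 counts on 1 of the transcripts, and TKO-2i replicate 3 was the TKO-2i library on the coding one. With coding transcripts alone its log2 fold change was -0.95 (edgeR adjusted p = 0.42), so the sign of Hoxa11 turned on how its reads were divided. In Hoxa10 noncoding transcripts took 43.9% of the counts in TKO-2i and 17.6% in TKO-serum, where all of them were in replicate 3. In Hoxd11 the share was 51.4% in TKO-2i and 75.8% in TKO-serum. For Hoxa9 the TKO-2i share was 14.8% and for Hoxd4 it was 16.7%, and the few noncoding counts of both in TKO-serum were all in replicate 2. Several members share sequence or ground with others: Hoxa3 spans Hoxa4, Hoxa5 and Hoxa6, a Hoxc5 transcript (Hoxc5-202) reaches back to Hoxc10, and Hoxd3 and Hoxd4 share their first bases. That Hoxc5 transcript took 1.09% of the Hoxc5 counts in TKO-2i, so the Hoxc5 difference lay on the coding transcript Hoxc5-201. The predicted gene Gm28230, which overlaps Hoxd3 and Hoxd4 on the plus strand, had 0.173, 0.151 and 0.215 TPM in TKO-2i and 0.0216, 0.0203 and 0.00971 TPM in TKO-serum. It was higher in every TKO-2i library (log2 fold change 3.47, SE 0.42, edgeR adjusted p = 0.00014), and reads it shares with its neighbours are divided by estimation. With 2, 3 and 1 counts in TKO-serum, no library of that group passed 3 counts, so the size of this difference rests on few reads. The strand setting of the deposited quantification is not given, so reads of antisense partners cannot be told apart either.

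**Figure D4:**
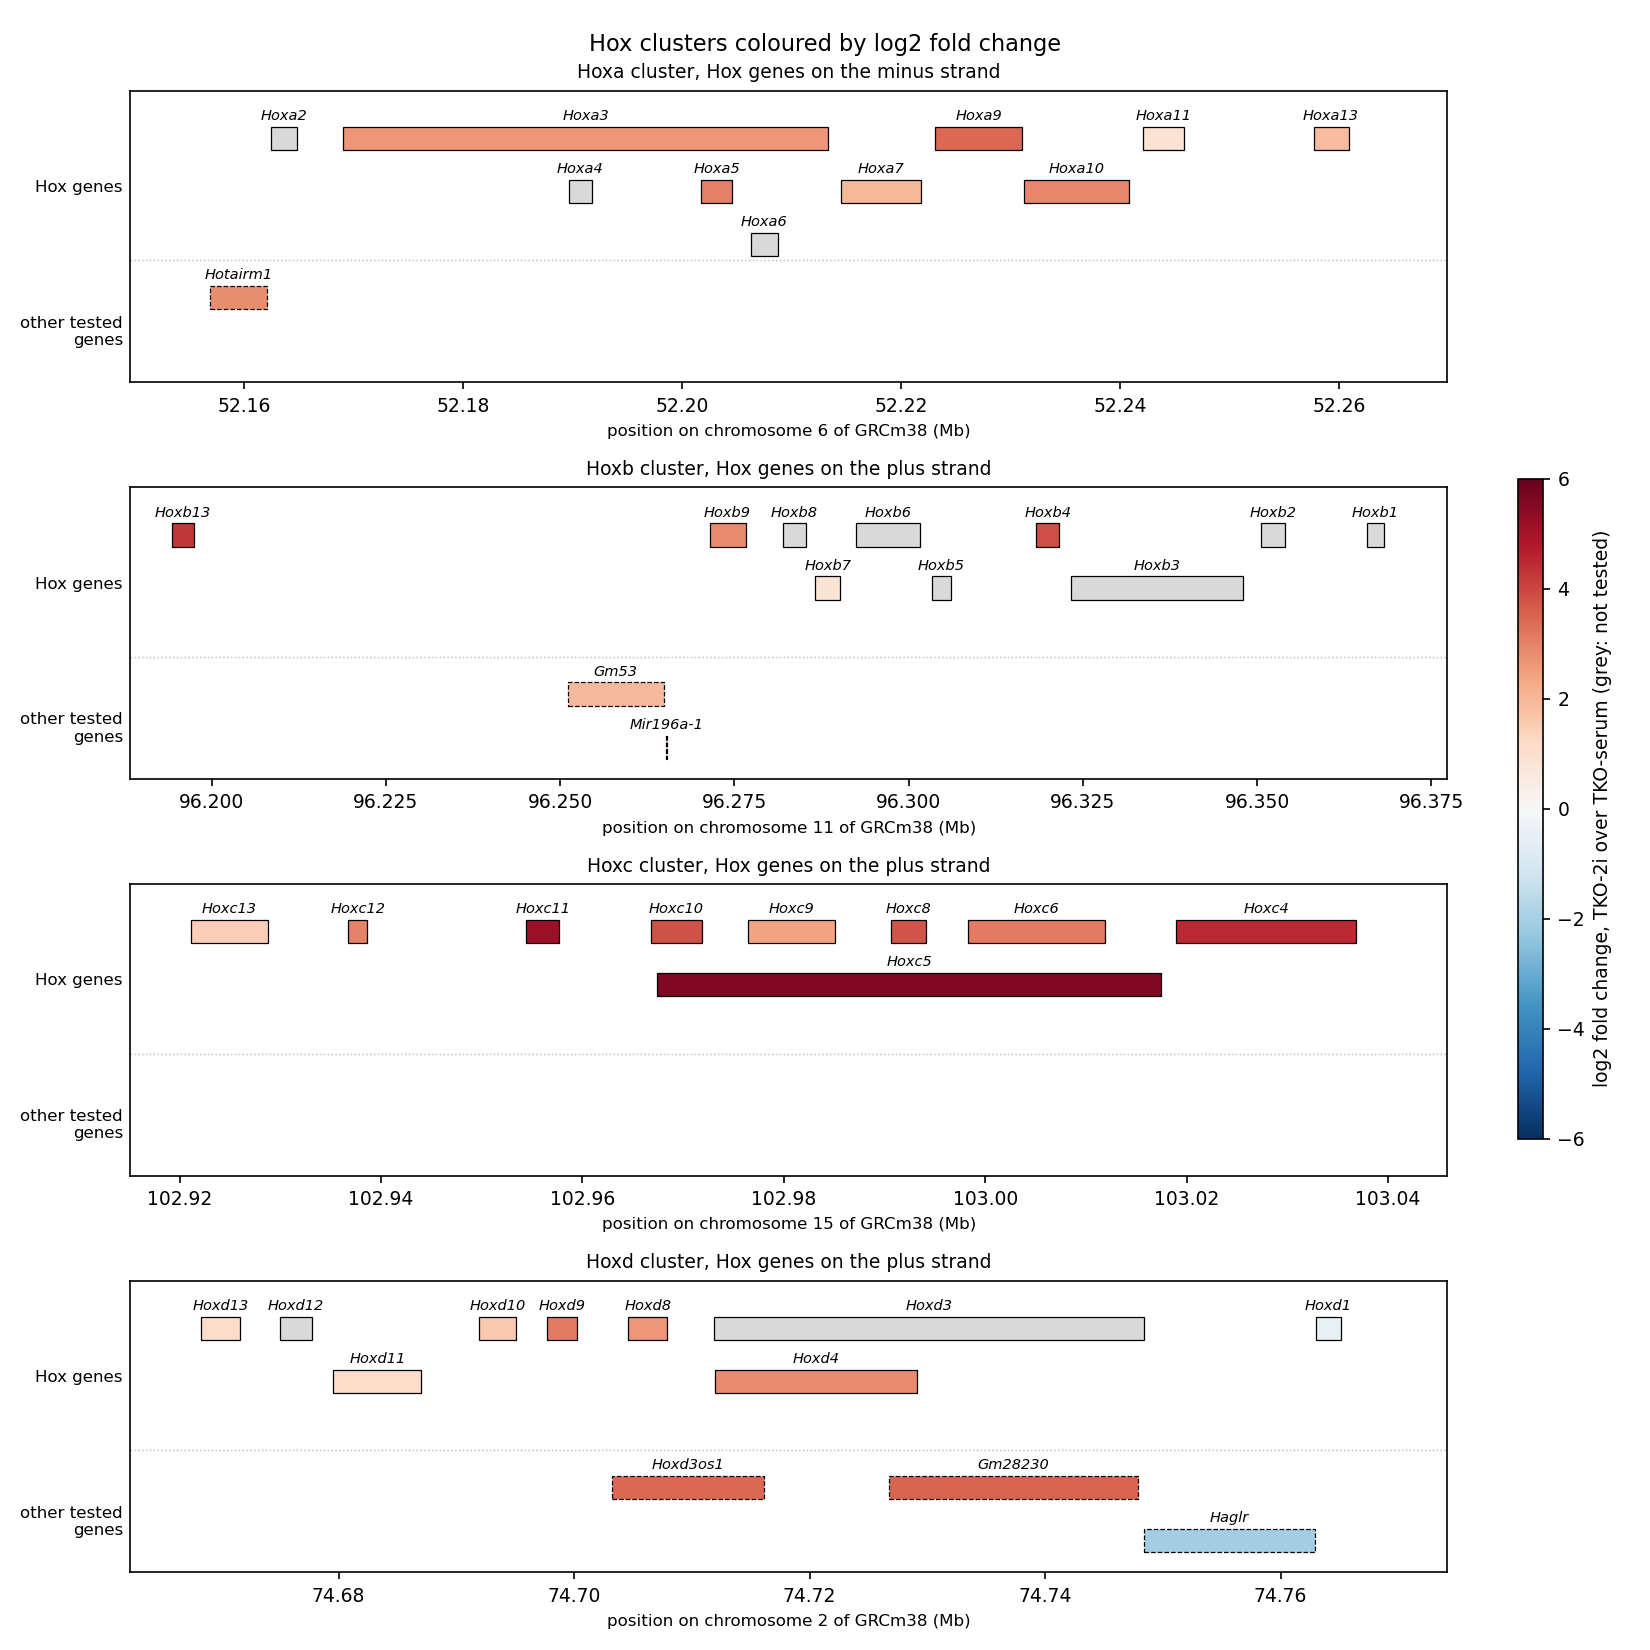
Maps of the 4 clusters in GRCm38 with each Hox gene described by name (solid outline) and each other tested gene inside the span (dashed outline) coloured by log2 fold change of TKO-2i over TKO-serum, grey where not tested. Colours run from -2.10 (Haglr) to 5.60 (Hoxc5), and of the tested Hox genes drawn Hoxd1 (-0.49) is on the blue side and the others are on the red side.

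The noncoding genes inside the clusters were mostly at or near 0. Of 43 such genes, 5 were tested, 4 were higher and 1 was lower in TKO-2i. Hotairm1, an antisense RNA of the Hoxa cluster, had 6.82, 5.74 and 5.48 TPM in TKO-2i and 0.651, 0.971 and 1.41 TPM in TKO-serum. It was higher in all TKO-2i libraries (log2 fold change 2.80, SE 0.26, edgeR adjusted p = 3e-05). Hoxd3os1, antisense at the start of Hoxd3, had 2.31, 1.86 and 3.11 TPM in TKO-2i and 0.352, 0.124 and 0.172 TPM in TKO-serum. The groups did not overlap (log2 fold change 3.44, SE 0.46, edgeR adjusted p = 0.00023), and the log2 fold change was 4.11 without TKO-serum replicate 1. Haglr, the antisense RNA beside Hoxd1, had 0.191, 0.301 and 0.177 TPM in TKO-2i and 0.968, 1.06 and 1.10 TPM in TKO-serum. It was the noncoding gene that fell (log2 fold change -2.10, SE 0.25, edgeR adjusted p = 0.00013), next to the tested Hox gene with lower values in TKO-2i. Mir196a-1, the hairpin upstream of Hoxb9, had 78, 91 and 87 counts in TKO-2i and 21, 21 and 22 counts in TKO-serum. All TKO-2i libraries were higher (log2 fold change 2.05, SE 0.19, edgeR adjusted p = 2.4e-05), and the noncoding gene Gm53 next to it had a log2 fold change of 1.96 in the same direction. Hotair, the antisense RNA of the Hoxc cluster, was found with 1 count in 1 TKO-2i library and 0 in the others. Mir10b had 1 count in 1 library, and Mir10a, Mir196a-2, Mir196b and Mir615 had 0 in all 6.

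The miR-10 and miR-196 families are shown because their hairpins lie between the Hox genes described here, and miR-196 is known to target Hox mRNAs such as Hoxb8. Libraries from poly(A) RNA measure the long transcripts across the hairpins and not the mature microRNAs. The mature sequences are from RefSeq (GRCm38.p6), with the seed (bases 2 to 8) in capitals, and 2 mature microRNAs share each seed. The seed ACCCUGU belongs to miR-10a-5p (chr11:96317186-96317208, plus strand, upstream of Hoxb4) and miR-10b-5p (chr2:74726074-74726096, plus strand, at Hoxd4). The seed AGGUAGU belongs to miR-196a-5p (chr11:96265187-96265208 and chr15:102973365-102973386, plus strand at both loci) and miR-196b-5p (chr6:52230129-52230150, minus strand, at Hoxa9).
miR-10a-5p: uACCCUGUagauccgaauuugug
miR-10b-5p: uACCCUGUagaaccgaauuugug
miR-196a-5p: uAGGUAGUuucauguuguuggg
miR-196b-5p: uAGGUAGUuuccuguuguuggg

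The protein-coding genes nearest to the clusters, between 8.75 and 910 kb away, were read in the same way. Among the nearest 3 genes on each side of each cluster, 24 in all, 23 were tested, 10 were higher and 5 lower in TKO-2i (3 lower without TKO-serum replicate 2), 0 were at least 2-fold higher, and the median log2 fold change was 0.10 against 0.01 for all tested genes. For these genes and the noncoding genes above, the shares over all tested genes were 31.9% higher, 30.6% lower and 7.72% at least 2-fold higher. Skap2, an adaptor gene 143 kb from the Hoxa cluster, had 58.9, 55.6 and 56.1 TPM in TKO-2i and 29.6, 30.7 and 29.9 TPM in TKO-serum. It was higher in every TKO-2i library (log2 fold change 0.99, SE 0.06, edgeR adjusted p = 2.3e-06). Skap1, the related gene beside Hoxb1, had 0.101, 0.0950 and 0.216 TPM in TKO-2i and 0.403, 0.515 and 0.281 TPM in TKO-serum. It was lower in every TKO-2i library (log2 fold change -1.53, SE 0.37, edgeR adjusted p = 0.0067). Smug1, a DNA glycosylase gene beside Hoxc4, had 13.1, 13.1 and 12.9 TPM in TKO-2i and 8.20, 7.47 and 8.50 TPM in TKO-serum, and Cbx3, which encodes a heterochromatin protein, had 369, 364 and 358 TPM in TKO-2i and 231, 236 and 229 TPM in TKO-serum. Both were higher in every TKO-2i library, with log2 fold changes of 0.84 (SE 0.05, edgeR adjusted p = 3.5e-06) and 0.73 (SE 0.05, edgeR adjusted p = 3.9e-06). Skap2 and Cbx3 are on chromosome 6, where the median log2 fold change of tested genes was 0.41. Evx1, the homeobox gene past Hoxa13, was not called at 0.878, 0.996 and 1.33 TPM in TKO-2i and 0.902, 1.19 and 1.12 TPM in TKO-serum.

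Promoter windows of 300 bases (250 before the annotated start and 50 after it) were found in RefSeq (GRCm38.p6) for 22 of the 39 Hox genes, 24 windows in all. Most of these windows lie in Hoxa and Hoxd. Those of Hoxb are at Hoxb1, Hoxb4 and Hoxb8, and Hoxc has only that of Hoxc4, so the medians describe Hoxb and Hoxc poorly. The median GC content of the Hox windows was 57.7%, against 52.7% for all 32851 windows of 27025 genes. The median number of CpG was 14.5 per Hox window and 7 per window over all genes, and the median ratio of observed to expected CpG was 0.626 against 0.384. The caudal-type motif CCATAAA (or TTTATGG on the other strand) was in 1 Hox window (4.17%), that of Hoxd4, and in 903 windows in all (2.75%). The Tcf/Lef motif ATCAAAG (or CTTTGAT) was also in 1 Hox window, that of Hoxd8, and in 1225 windows in all (3.73%). A match is a description of the letters and not a binding site. The windows of Hoxd4 (chr2:74721728-74722027, plus strand) and Hoxd8 (chr2:74704365-74704664, plus strand) are shown because they are the ones with a match, 2 in each, in capitals. Both genes were higher in TKO-2i.
Hoxd4: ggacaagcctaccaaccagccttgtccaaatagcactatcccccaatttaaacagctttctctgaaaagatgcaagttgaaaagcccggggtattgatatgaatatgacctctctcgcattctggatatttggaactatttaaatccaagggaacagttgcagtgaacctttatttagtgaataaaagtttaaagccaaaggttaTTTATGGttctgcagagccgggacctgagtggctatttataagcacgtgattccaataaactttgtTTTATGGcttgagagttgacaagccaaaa
Hoxd8: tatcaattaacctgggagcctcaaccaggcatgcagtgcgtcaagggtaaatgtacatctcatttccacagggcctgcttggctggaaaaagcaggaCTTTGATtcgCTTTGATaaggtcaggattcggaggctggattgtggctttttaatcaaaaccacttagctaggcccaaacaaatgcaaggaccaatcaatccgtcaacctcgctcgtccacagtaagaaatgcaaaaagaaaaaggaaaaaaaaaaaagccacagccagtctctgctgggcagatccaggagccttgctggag

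The windows of Hoxd9, the most abundant Hoxd gene in TKO-2i, and of Hoxd1, the tested Hox gene with lower values in TKO-2i, are shown with each CG in capitals, since CpG dinucleotides are where the absent Dnmt enzymes act. The Hoxd9 window (chr2:74697513-74697812, plus strand) has 20 CpG and a GC content of 68.3%. That of Hoxd1 (chr2:74762730-74763029, plus strand) has 29 CpG and a GC content of 69.7%. The ratio of observed to expected CpG was 0.573 for Hoxd9 and 0.805 for Hoxd1, beside medians of 0.626 over the Hox windows and 0.384 over all windows. Hoxd9 was higher in TKO-2i and Hoxd1 was not called.
Hoxd9: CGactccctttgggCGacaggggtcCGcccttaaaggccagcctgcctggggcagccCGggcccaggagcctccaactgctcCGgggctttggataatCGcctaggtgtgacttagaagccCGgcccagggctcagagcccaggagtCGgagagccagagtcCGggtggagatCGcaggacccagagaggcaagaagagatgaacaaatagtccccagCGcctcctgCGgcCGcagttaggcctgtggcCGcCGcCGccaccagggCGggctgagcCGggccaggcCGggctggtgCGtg
Hoxd1: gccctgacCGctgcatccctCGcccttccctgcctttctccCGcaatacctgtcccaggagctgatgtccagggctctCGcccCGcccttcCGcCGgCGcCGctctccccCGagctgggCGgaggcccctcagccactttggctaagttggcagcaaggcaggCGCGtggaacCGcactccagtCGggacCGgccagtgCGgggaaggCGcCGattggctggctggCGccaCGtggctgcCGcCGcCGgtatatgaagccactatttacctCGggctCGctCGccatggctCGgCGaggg

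Among the genes whose proteins bind DNA together with Hox proteins, 9 of 9 were tested, 1 was higher and 4 were lower in TKO-2i, and the median log2 fold change was -0.08. For this and the other lists, the shares over all tested genes were 31.9% higher and 30.6% lower, with a median of 0.01. Meis2, a partner of Hox proteins in trunk and limb, had 7.48, 8.58 and 6.81 TPM in TKO-2i and 1.11, 1.50 and 1.23 TPM in TKO-serum. It was the cofactor that rose (log2 fold change 2.69, SE 0.10, edgeR adjusted p = 2e-07), in the same direction as the Hox genes. Meis1, its close relative, had 0.603, 0.517 and 0.431 TPM in TKO-2i and 1.22, 1.32 and 1.71 TPM in TKO-serum. It fell in TKO-2i, with no overlap between the groups. Its log2 fold change was -1.42 (SE 0.15, edgeR adjusted p = 5.4e-05), and that of Pknox2 was -0.63 (edgeR adjusted p = 0.003). The summed TPM of the 9 cofactors was 47.1, 53.0 and 46.0 TPM in TKO-2i and 48.6, 53.2 and 47.7 TPM in TKO-serum, with the groups overlapping.

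Of the 8 caudal, ParaHox and Evx genes (Evx1 and Evx2), relatives of the Hox genes, 5 were tested, 2 were higher and 1 was lower in TKO-2i. Cdx2, a caudal-type activator of Hox genes, had 3.60, 2.54 and 4.10 TPM in TKO-2i and 0.240, 0.245 and 0.0995 TPM in TKO-serum. It rose with its relative Cdx1, with log2 fold changes of 4.28 (SE 0.35, edgeR adjusted p = 1.3e-05) and 7.85 (SE 0.17, edgeR adjusted p = 1.6e-08). Gsx1, a ParaHox gene of the brain, fell with a log2 fold change of -2.68 (SE 0.36, edgeR adjusted p = 0.00026), and Cdx4 was under the filter. Of 12 genes of axial elongation and hindbrain segmentation, 11 were tested, 3 were higher and 5 lower, with a median of -0.24. T, the mesoderm factor brachyury, had 9.99, 9.78 and 15.8 TPM in TKO-2i and 0.272, 0.360 and 0.179 TPM in TKO-serum. Nkx1-2, a marker of the axial progenitor zone, had 7.51, 7.81 and 9.29 TPM in TKO-2i and 0.0920, 0.0980 and 0.0710 TPM in TKO-serum. Both were high in all TKO-2i libraries and low in TKO-serum, with log2 fold changes of 5.58 (SE 0.32, edgeR adjusted p = 1.7e-06) and 6.64 (SE 0.19, edgeR adjusted p = 6.3e-08). Fgf8, a signal of the tail bud, fell (-2.86, SE 0.28, edgeR adjusted p = 4.1e-05), and so did the hindbrain gene Egr2 (-4.12, SE 0.49, edgeR adjusted p = 0.00012). Whether any of these genes acts on the Hox genes in these cells was not tested.

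The Polycomb genes, whose products repress Hox clusters, were expressed in both media. All 30 were tested, 20 were higher and 6 lower in TKO-2i, against 31.9% higher and 30.6% lower of all tested genes, and the median log2 fold change was 0.30. Their summed TPM was 2305, 2626 and 2304 TPM in TKO-2i and 2294, 2508 and 2427 TPM in TKO-serum, with overlapping groups. Phf19, which helps the Ezh2 complex bind chromatin, had 0.724, 0.754 and 0.683 TPM in TKO-2i and 7.58, 6.81 and 6.32 TPM in TKO-serum and the largest difference (log2 fold change -2.78, SE 0.08, edgeR adjusted p = 5.8e-08). Jarid2, a further partner of that complex, also fell (-1.07, SE 0.06, edgeR adjusted p = 1.4e-06), while Pcgf1 (1.18, SE 0.11, edgeR adjusted p = 2.5e-05) of the ubiquitin ligase complexes rose. Of 10 Trithorax-type genes, which keep Hox genes active, all were tested, 4 were higher and 1 was lower, with a median of 0.08. Kdm6b, an eraser of the Polycomb mark, rose (1.07, SE 0.06, edgeR adjusted p = 1.2e-06) and its relative Kdm6a fell (-0.65, SE 0.10, edgeR adjusted p = 0.00039). Wdr5 and Rbbp5, shared subunits of the methyltransferase complexes, rose by 0.79 and 0.33 on the log2 scale.

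Of 11 retinoid genes, which make, bind or break down retinoic acid and its precursors, 10 were tested, 2 were higher (1 by limma or without TKO-serum replicate 3) and 7 lower in TKO-2i, with a median log2 fold change of -0.65, against 31.9% higher and 30.6% lower of all tested genes. Cyp26a1, the retinoic acid-degrading enzyme that retinoic acid induces, had 0.0378, 0.156 and 0.0399 TPM in TKO-2i and 1.05, 1.23 and 0.932 TPM in TKO-serum. It fell (log2 fold change -3.68, SE 0.38, edgeR adjusted p = 5.2e-05, and -4.51 without TKO-2i replicate 2). Stra6, a retinol transporter gene, and Rarg, a retinoic acid receptor gene, fell as well, with log2 fold changes of -2.54 (SE 0.32, edgeR adjusted p = 0.00017) and -1.52 (SE 0.09, edgeR adjusted p = 2.2e-06). Retinoid signalling itself was not measured.

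Markers of cell types in which Hox genes are active were read beside the Hox sums. Of 5 paraxial mesoderm markers, 3 were tested, 1 (T) was higher and 2 were lower in TKO-2i, and the summed TPM was 10.5, 10.2 and 16.2 TPM in TKO-2i and 1.70, 1.75 and 1.94 TPM in TKO-serum. T was the most abundant of them in TKO-2i and made up most of that sum, while Meox1, the most abundant in TKO-serum, fell, with 0.0221, 0.0386 and 0.0233 TPM in TKO-2i and 0.669, 0.643 and 0.760 TPM in TKO-serum, and the lower call of Tbx6 was lost in DESeq2 and in edgeR without TKO-2i replicate 2 or 3 or TKO-serum replicate 1 or 3. Of 6 limb and lateral mesoderm markers, 4 were tested, 2 (Tbx5 and Pitx1) were higher and 2 (Hand1 and Tbx4) were lower. Their summed TPM was 2.57, 2.56 and 2.50 TPM in TKO-2i and 2.74, 2.97 and 2.47 TPM in TKO-serum, with overlapping groups, and the most abundant gene was Tbx5 in TKO-2i and Hand1 in TKO-serum. Tbx5, the forelimb gene, had 1.01, 0.960 and 1.05 TPM in TKO-2i and 0, 0.0562 and 0.0241 TPM in TKO-serum. It rose with the Hox genes (log2 fold change 5.20, SE 0.40, edgeR adjusted p = 9.4e-06, and 6.30 without TKO-serum replicate 2), as did Pitx1 of the hindlimb (3.26, SE 0.28, edgeR adjusted p = 1.7e-05). All 5 tested neural markers of 6 were lower, the summed TPM was 82.3, 80.3 and 79.6 TPM in TKO-2i and 138, 142 and 138 TPM in TKO-serum, Tubb3 was the most abundant in both groups and Neurog2 was at 0 in all TKO-2i libraries. Of 7 fibroblast markers 3 were tested, 0 were higher and 2 were lower, and the sum was 4.12, 4.81 and 4.55 TPM in TKO-2i and 5.83, 6.48 and 5.94 TPM in TKO-serum. Thy1 was the most abundant in both groups, and Dcn, Lum, Postn and Col3a1 were under the filter. Of 5 primitive endoderm markers 4 were lower and 0 higher, with a sum of 4.55, 5.52 and 4.47 TPM in TKO-2i and 12.6, 15.7 and 17.1 TPM in TKO-serum and with Gata4 as the most abundant in TKO-2i (mean of 2.41 TPM) and Dab2 in TKO-serum (6.72 TPM). The lower call of Sox17, one of these 4, was lost on length-scaled TPM and without TKO-serum replicate 2. Of 5 trophoblast markers 1 (Tfap2c, the most abundant in both groups) was higher and 3 were lower, with a sum of 33.1, 31.9 and 28.9 TPM in TKO-2i and 26.6, 27.3 and 25.4 TPM in TKO-serum. The part of cells expressing T, Tbx5, Pitx1 or Tfap2c in the Hox values was not tested.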

How the data were processed

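For each library the authors deposited an estimated count and a TPM per mouse transcript, in the columns that salmon writes; the quantifier, its version, its index and its strand setting are not given in the sources used here. The estimated counts are not normalized and mostly not whole numbers, and the deposited TPM values are scaled for effective length and add up to the same total in each library. The submitters' processing notes give mm10 as the genome build, and the paper describes Tophat V2 and RPKM, which these columns do not hold. Other libraries of the series were not analysed here.

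Transcript identifiers were looked up in GENCODE M21 (GRCm38), and 0.0473% to 0.0643% of the estimated counts of a library were unmatched and left out. Counts and TPM were summed per gene. Counts were rounded, filtered with filterByExpr, normalized by TMM and tested in edgeR 4.0.16 (R 4.3.3) with glmQLFit and glmQLFTest, condition only, with Benjamini-Hochberg adjustment over all tested genes. The SE is the absolute log2 fold change over the square root of F. Ratios of small counts have 95% Clopper-Pearson intervals, scaled by library size. Figures and summaries were made in Python 3.11.15. The fit was tested on simulated data.

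Hox genes with full statistics were taken from those at least 2-fold apart with an adjusted p-value under 0.05 and a mean of at least 10 counts in the higher group, and from the 3 with the highest mean TPM. From every other list at most the 4 largest differences among called genes with that mean were named, and the Dnmt targets. Hoxa11, Hoxb7, Hoxd1, the members under the filter, Pou5f1, Evx1, Cdx4, Gm53, Hotair, the microRNA genes without a call, Neurog2, the fibroblast markers under the filter, and Tubb3 and Gata4 as the most abundant of their lists were singled out after their values were seen. A few genes that meet these rules are not reported here one by one. Members and lists were chosen with earlier results of these data known.

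Alternatives were DESeq2 1.42.0, its size factors in edgeR, no filter, at least 10 counts in every sample, limma 3.58.1 on TPM + 1 and on TPM + 0.1 (log2), length-scaled TPM, a replicate block, protein-coding transcripts only and each library left out in turn. For the count of Hox genes at least 2-fold higher, the ratios of summed TPM and the lists beside the Hox genes, they were added after seeing the data.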

Additional observations from a re-analysis of the deposited data

How the results depend on the processing

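The direction of the Hox result held under every alternative: 25 to 30 Hox genes were higher in TKO-2i, except with at least 10 counts in every sample, and 0 were lower at an adjusted p-value under 0.05 under all. DESeq2 gave 25, edgeR with size factors from DESeq2 26, no filter 30 of 39, length-scaled TPM 27, protein-coding transcripts only 25 of 27, and leaving out each library in turn 25 to 27. With at least 10 counts in every sample, 14 Hox genes were tested and 12 were higher, with 3 in Hoxa, 2 in Hoxb and 2 in Hoxc and 11 at least 2-fold higher, since fewer genes were tested. By limma on log2(TPM + 1), 13 were at least 2-fold higher, as the added 1 shrinks differences under 1 TPM. With protein-coding transcripts only, Hoxa11 reversed to -0.95, since its noncoding transcript was left out. The count for genes at least 2-fold higher and the lists beside the Hox genes were recomputed by alternatives chosen after seeing the data. Over all tested genes 9804 to 12539 were called with all libraries, and 10152 to 12568 without 1 library.

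With the replicate number as a replicate block, 26 Hox genes were higher and 12539 of all genes were called, against 11361. The residuals of libraries with the same number had r = 0.24, 0.33 and 0.01. Replicates 1 and 2 matched their own number best and replicate 3 did not, so these values do not settle whether such libraries share more than a number.

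Of 433 single-gene values for the tested Hox genes, 418 kept their direction and their side of the threshold (or, less the median of the chromosome, shifted by under 1 SD), 4 lost a call, 2 gained one, 8 shifted by 1 SD or more less that median and 1 reversed, and the 25 genes at least 2-fold higher lost no call. Of 859 values for 59 genes of the other lists 850 kept both, 9 lost a call (Dnmt1, Sox17 and Tbx6) and 0 reversed; the cause was not tested. These counts do not measure size: 42 of the Hox values differed from the reported fold by over 1.5 times, 23 of 28 by limma on log2(TPM + 1), 11 of 28 by limma on log2(TPM + 0.1), 4 on leaving out a library and 4 elsewhere, as did 50 values of the other lists (31, 15, 3 and 1).

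Depth limits the 11 Hox genes under the filter and the size of every fold against a TKO-serum level near 3 counts. Intervals do not cover variation between cultures, the division of reads among overlapping transcripts or antisense reads. Replicates are 3 per group of 1 line, and the media differ in several agents.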
